A study of Mus musculus with 12 samples.

Results

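Promoters that a Capture-C experiment did not target can still appear in it, as the far ends of contacts made by the promoters that were targeted. The deposited table of significant contacts was searched for distal bins of 2 kb that carried the authors' active-promoter mark in both fetal liver and adult bone marrow haematopoietic stem cells (HSCs), that carried no bivalent-promoter or poised-enhancer mark, and that overlapped no captured promoter fragment of the table. These conditions were met by 9727 of 88475 within-chromosome contacts (11.0%), of 89545 listed contacts in all. The first batch held 5192 of them among 49290 contacts (10.5%) and the second 4535 among 39185 (11.6%). They ended in 5737 distinct bins, of which 3675 occurred in the first batch, 3451 in the second and 1389 in both. The marks and the positions chose the bins, so that neither is a result, while the calls, counts, distances and expression values played no part in the choice.

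Fetal cells came from livers at embryonic day 14.5 and adult cells from bone marrow of mice aged 6 to 8 weeks, both of the strain B6129SF1, and both were sorted as Lin-Sca1+cKit+CD135-. That gate also takes in multipotent progenitors beside stem cells. Each population had 4 libraries, 2 in each of 2 batches that captured nearly separate promoter sets, and the labels name no treatment or altered allele in these groups. The 4 samples of the HPC7 blood progenitor line, with and without TCF3, were not analysed here. Each deposited value pools the libraries of a population in a batch, so no value below has a replicate error and no difference was tested. Intervals are exact 95% intervals (Clopper-Pearson for shares, order statistics for medians), hold counting error alone, and are narrower than they should be where adjacent bins were called together.

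An active promoter is a stretch of open chromatin around a transcription start where histones carry active marks and RNA polymerase is loaded. Promoters of expressed genes, above all those of housekeeping genes in gene-dense regions, often lie close to each other in the nucleus, and such promoter-promoter contacts are found beside the contacts between promoters and enhancers. A captured promoter reports such a neighbour whether or not the neighbour itself was captured.

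The files name the captured gene of each contact and leave the gene at the distal bin unnamed, and their coordinates are of mm9, per the submitters' processing notes. Candidate genes were therefore taken from gene order alone, as the RefSeq protein-coding genes whose starts lie, in GRCm38.p6, between the captured promoters that flank a bin. This placed 3722 of the 5737 bins. A sole candidate remained for 306 bins, 2 to 5 candidates for 1464, 6 or more for 1804, and none for 148. The promoters of 4 sole candidates are shown because their bins recur below, as shared bins or at the largest fetal or adult count ratios. They are taken from RefSeq, with coordinates of GRCm38.p6, and each runs from 250 bases before to 50 bases after the RefSeq start, 5′ to 3′ on the gene's strand, and capitals mark the motifs searched on both strands. Whether the contacted mm9 bin holds that start was not settled, since no coordinate was carried between builds.
Ppp1r12c, chr7:4501631-4501930, minus strand: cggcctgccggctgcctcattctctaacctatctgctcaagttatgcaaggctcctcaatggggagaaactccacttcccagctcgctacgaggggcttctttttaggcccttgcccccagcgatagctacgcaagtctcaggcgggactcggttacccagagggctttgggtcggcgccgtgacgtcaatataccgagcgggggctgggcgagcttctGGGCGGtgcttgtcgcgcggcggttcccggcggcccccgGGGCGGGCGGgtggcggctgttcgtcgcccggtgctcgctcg
Supt5, chr7:28338670-28338969, minus strand: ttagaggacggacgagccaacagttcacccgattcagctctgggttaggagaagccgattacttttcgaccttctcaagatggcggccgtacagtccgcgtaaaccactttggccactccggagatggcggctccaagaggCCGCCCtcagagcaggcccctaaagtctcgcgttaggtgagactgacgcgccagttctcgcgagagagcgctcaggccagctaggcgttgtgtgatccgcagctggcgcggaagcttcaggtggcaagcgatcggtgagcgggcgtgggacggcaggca
Gtf2h1, chr7:46795844-46796143, plus strand: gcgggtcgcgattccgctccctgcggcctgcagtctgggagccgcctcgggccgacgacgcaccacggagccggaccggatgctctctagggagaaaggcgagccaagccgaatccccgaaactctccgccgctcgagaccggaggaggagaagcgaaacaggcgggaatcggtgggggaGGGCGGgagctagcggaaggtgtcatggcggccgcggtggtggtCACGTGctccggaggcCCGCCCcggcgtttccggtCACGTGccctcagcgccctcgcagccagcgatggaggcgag
Rnf216, chr5:143112971-143113270, minus strand: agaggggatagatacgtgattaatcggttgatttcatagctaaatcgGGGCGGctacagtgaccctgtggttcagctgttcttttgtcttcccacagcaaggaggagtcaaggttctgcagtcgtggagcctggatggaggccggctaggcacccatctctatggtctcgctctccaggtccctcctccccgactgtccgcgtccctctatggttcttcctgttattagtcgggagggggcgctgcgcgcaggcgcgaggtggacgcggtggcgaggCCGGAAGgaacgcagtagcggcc

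All 4 sequences are rich in G and C, from 59.7% at Rnf216 to 71.0% at Gtf2h1, and hold CpG dinucleotides at 0.835 to 1.04 times the number their base content gives. Each holds at least 1 GC box (GGGCGG), the letters bound by Sp-family factors, which occur in 35.7% of all promoter entries of the RefSeq table. Gtf2h1 also holds 2 E-boxes (CACGTG, in 7.15% of all entries), and Rnf216 1 ETS motif (CCGGAAG, in 8.86%). CCAAT (37.4% of entries), TATAAA (13.6%) and the GATA motif AGATAAG (3.04%) were found in none of the 4. A match is a run of letters in this window and shows no binding.

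The rule does not in every case reach the promoter of another gene. A captured fragment lay within 2 kb of the bin in 454 contacts of the first batch (8.74%) and 410 of the second (9.04%), within 5 kb in 12.2% and 11.8%, and within 20 kb in 28.1% and 27.4%. Some bins thus lay directly beside a captured promoter, and for the 148 bins with no candidate the flanking captured genes had no listed protein-coding start between them. The median gap to the nearest captured fragment was 48.0 kb and 43.9 kb. The text therefore speaks of uncaptured active promoter bins.

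The batches differed in depth and stringency. The score of a contact behaves as a −log10 p-value, with smallest called values of 1.3 in the first batch and 2.0 in the second. Contacts with uncaptured active promoter bins had medians of 11 fetal and 10 adult counts (first batch) and of 30 and 27 (second batch). Stem and progenitor genes were present in the expression column, with Kit at 32.8 FPKM in fetal and 50.5 in adult cells, Gata2 at 21.9 and 57.3, and fetal Hmga2 at 28.2 against 1.75. Others of the stem and progenitor genes looked for were higher in fetal cells, so Kit and Gata2 stand for no common direction. Macrophage and red cell markers, read as 6 genes (Csf1r, Emr1, Marco, Spic, Hbb-b1 and Klf1), were all higher in the fetal cells, with a summed level of 48.2 FPKM against 3.55. Csf1r was at 5.67 against 0.0390 FPKM and Klf1 at 24.0 against 2.40. The T cell, B cell and liver markers looked for were not among the captured promoters. The part of other blood cells in the contacts was not tested.

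Contacts with uncaptured active promoter bins were called in both populations in a larger share than other contacts, with intervals that did not overlap. Of the 5192 in the first batch, 2086 were called in both (40.2%, 38.8 to 41.5), where 25.3% of all within-chromosome contacts were. The remaining contacts, those with any other bin, gave 23.5% (23.2 to 23.9). Of the 4535 in the second, 2207 were called in both (48.7%, 47.2 to 50.1), against 36.7% of all contacts and 35.2% (34.7 to 35.7) of the remaining ones. Bins holding an active captured promoter gave 40.8% and 54.8%, and bins marked as active enhancers in both populations 30.8% and 43.4%. The share at the uncaptured bins thus lay above that at enhancers in both batches, near that at captured promoters in the first and below it in the second.

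The share called in both also moved with distance and counts, and was therefore read within classes of each. Between 20 and 60 kb the share called in both was 48.5% against 31.3% for other bins (first batch) and 51.1% against 34.4% (second batch). From 60 to 150 kb it was 47.6% against 29.7% and 56.8% against 39.1%, and from 150 to 500 kb 35.5% against 19.4% and 37.5% against 28.3%. Between 500 and 1000 kb only the first batch kept the intervals apart (27.0%, 22.2 to 32.3, against 10.8%, 9.37 to 12.3). The corresponding shares of the second batch were 21.4% and 20.5%. Beyond 1000 kb the order turned, with 7 of 65 contacts in both (10.8%, 4.44 to 20.9) against 32.2% (27.7 to 36.8) in the first batch, and 2 of 9 in the second. The order was also seen at like counts. Among contacts with 20 to 39 counts in all, 57.5% were called in both against 44.2% of others in the first batch, and among those with 50 to 99 counts 69.0% against 57.8% in the second. In the deepest class, from 100 counts in the first batch and 200 in the second, the intervals overlapped (69.7% against 66.5% and 83.5% against 82.5%).

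**Figure D1:**
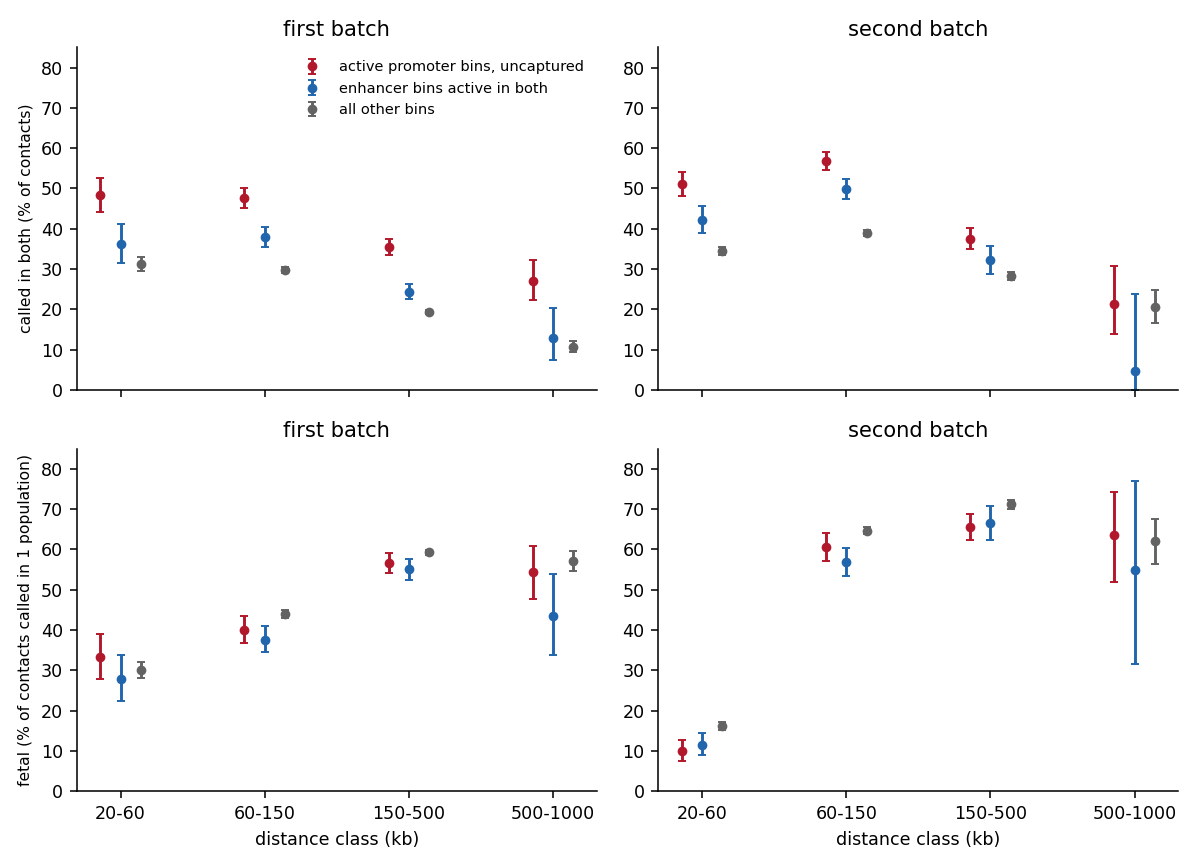
The upper row plots the share of contacts called in both populations and the lower row the share of fetal contacts among those called in 1 population, in percent, by distance class in kb, for each batch. Points are shares with exact 95% intervals. Uncaptured active promoter bins (red) lie above enhancer bins active in both populations (blue) and above all other bins (grey) in the upper row up to 500 kb, and in the lower row the fetal share of all 3 kinds of bin is higher at 150 to 500 kb (red points at 56.6% and 65.6%) than at 20 to 60 kb (33.2% and 9.96%).

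The contacts that only 1 population showed were divided nearly evenly. There were 1525 fetal only and 1581 adult only in the first batch, a fetal share of 49.1% (47.3 to 50.9), where 52.1% of all contacts called in 1 population were fetal. The second batch gave 1183 and 1145, a fetal share of 50.8% (48.8 to 52.9) against 53.7% of all. For the first batch, 39% of all within-chromosome contacts were fetal only and 35.7% adult only, while for the second these were 34% and 29.3%. Fetal calls of either class covered 64.3% of all contacts (second batch 70.7%), and adult calls 61% (second batch 66%). Measured against all calls of a population, these bins took 11.4% (11.1 to 11.8) in fetal and 12.2% (11.8 to 12.6) in adult cells, for the first batch. The second batch gave 12.2% (11.9 to 12.6) and 13.0% (12.5 to 13.4), with overlapping intervals.

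Distance separated the fetal from the adult contacts. Calls in fetal cells lay a median of 165 kb from their promoter in the first batch (161 to 169) and calls in adult cells 146 kb (141 to 152). The second batch gave 111 kb (108 to 113) and 89.7 kb (86.3 to 92.5). The difference of 18.8 kb in the first batch and 21.4 kb in the second compared with 25.2 and 24.4 kb over all other contacts, so the uncaptured active promoter bins shared a shift that the other bins showed too. Among contacts of 1 population the fetal share rose from 33.2% (27.8 to 39.0) at 20 to 60 kb to 56.6% (54.1 to 59.0) at 150 to 500 kb in the first batch. In the second it rose from 9.96% (7.55 to 12.8), or 53 fetal against 479 adult contacts, to 65.6% (62.3 to 68.8), or 572 against 300.

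**Figure D2:**
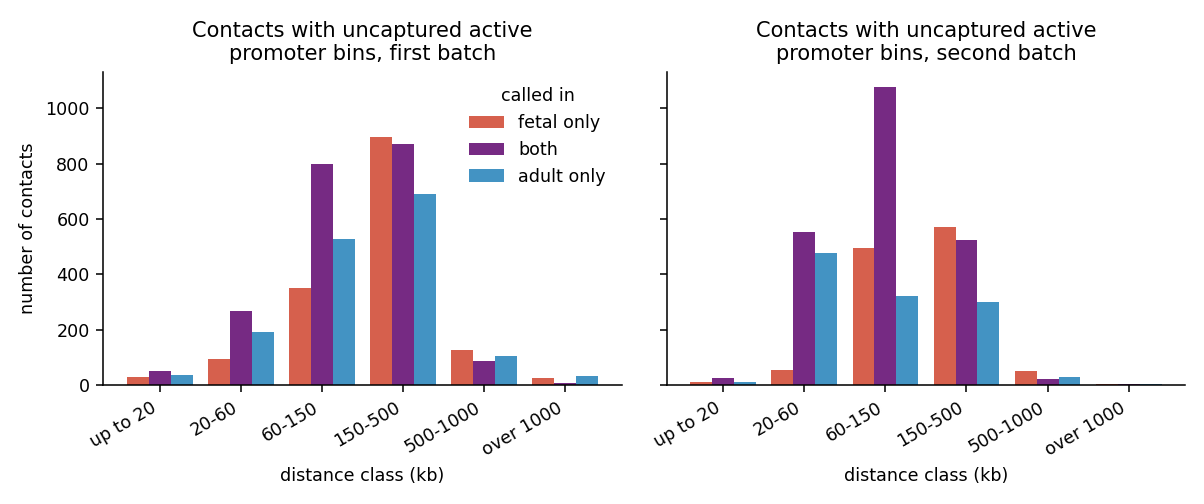
Bars give the number of contacts with uncaptured active promoter bins in each distance class (kb) that were called in fetal cells only, in both populations or in adult cells only, per batch. Between 60 and 150 kb the contacts called in both form the tallest bar, while fetal-only contacts outnumber adult-only ones from 150 to 500 kb (898 against 690 and 572 against 300) and are outnumbered from 20 to 60 kb (95 against 191 and 53 against 479).

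The counts behind the calls differed less than the calls. For each contact fetal counts were divided by adult counts, after adding 1 count to each, and the log2 value was centred on the median of all within-chromosome contacts of its batch (0.14 in the first and 0.23 in the second). The median of this scaled ratio was -0.07 (-0.14 to -0.04) over the contacts of the first batch. The second batch gave -0.05 (-0.07 to -0.03). Scaled by total counts in place of the median, it was -0.16 and 0.03, so its direction in the second batch depends on the scaling. At least a 2-fold fetal excess (a scaled ratio of 1 or more) was seen in 464 contacts of the first batch (8.94%), where 15.5% of all contacts reached it. A 2-fold adult excess was seen in 680 (13.1%), against 16.1% of all. The second batch gave 229 (5.05%, against 7.87%) and 270 (5.95%, against 7.3%). A fetal-only contact of the first batch had medians of 10 fetal and 5 adult counts and an adult-only one 6 and 11, and in the second batch these were 25 and 15, and 20 and 27. A contact called in 1 population thus usually had counts in the other too. Adult cells had 0 counts at 25 of the 5192 contacts of the first batch, fetal cells at 22, and neither at any of the second. Counts given below for named promoters and bins are unscaled, so a slightly higher fetal count is usual in both batches.

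The bins were nearly always open. ATAC-seq, which marks accessible DNA, marked 94.8% of these contacts' bins as open in both populations in the first batch and 95.1% in the second, against 39.0% and 42.1% for other bins. An active-enhancer mark of adult cells lay on 1.75% and 1.98% of them. Promoter marks and open chromatin describe the same places, so the comparison describes the marks rather than the contacts.

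Captured promoters that touched an uncaptured active promoter bin belonged to more highly expressed genes. Such a contact was found for 1331 of 1939 captured promoters of the first batch (68.6%), and for the second 1189 of 1814 (65.5%). Their genes had a median of 10.4 FPKM in fetal cells (9.45 to 11.0) and 11.6 in adult cells (10.8 to 12.4) in the first batch, against 5.22 (4.34 to 6.39) and 6.65 (5.59 to 7.52) for promoters without. Expression of 1 FPKM or more in fetal cells was reached by 91.6% (90.0 to 93.0) against 76.8% (73.2 to 80.1). The second batch had lower levels, 3.35 FPKM (2.98 to 3.59) against 2.06 (1.78 to 2.35) in fetal cells, with 81.0% against 71.4% expressed. All promoters of the second batch carry the authors' mark of differential expression, so the batches are different kinds of gene list.

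The share of promoters with such a contact rose with expression. In the first batch it was 39.8% (32.9 to 47.0) of the 196 promoters below 1 FPKM, 64.7% of those from 1 to below 5, 71.5% of those from 5 to below 20, 78.3% from 20 to below 100, and 78.1% of the 114 at 100 or more. The second batch ran from 55.1% of 185 to 83.3% of 162 promoters between 20 and 100 FPKM. As a share of all contacts of the promoters in a class, contacts with these bins made up 3.77% in the lowest and 14.5% in the highest class of the first batch, and 8.32% in the lowest class of the second, where the 11 promoters at 100 FPKM or more had 60 of their 240 contacts with such bins. Promoters with such a contact also had more contacts in all (medians of 24 against 7 and 22 against 5), so expression was also read within classes of that number. In the first batch the promoters with such a contact had the higher share expressed in each of the 5 classes, in fetal as in adult cells. With 11 to 20 contacts, 89.5% of 334 promoters with a contact to such a bin were expressed in fetal cells against 75.2% without in the first batch. For the second batch the same class had 80.9% of 256 against 64.4% of 90 in fetal cells, but 91.8% against 91.1% in adult cells. At 6 to 10 contacts its fetal medians were 2.34 against 2.26 FPKM, and at 1 to 5 contacts its adult median was the lower with such a contact (2.96 against 3.16 FPKM).

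**Figure D3:**
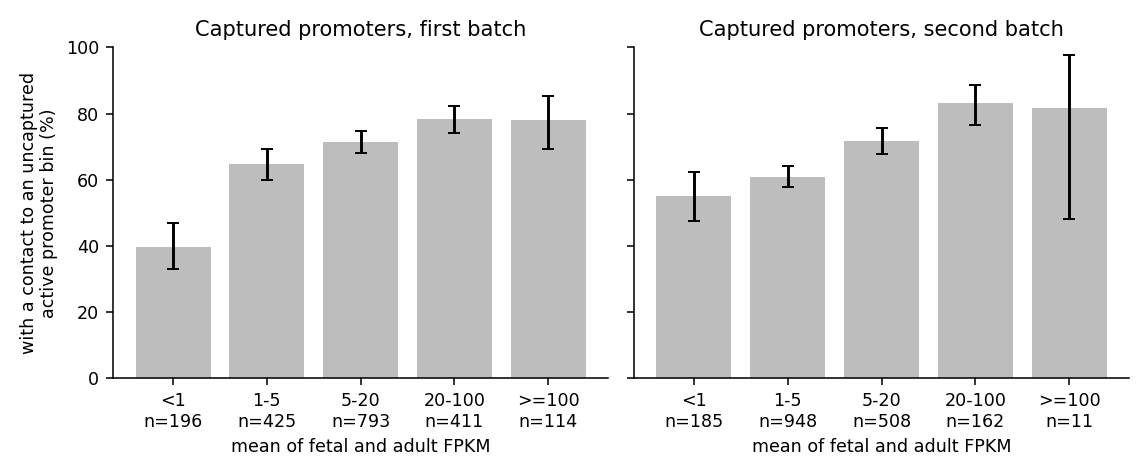
Bars give the percent of captured promoters with at least 1 contact to an uncaptured active promoter bin, by the mean of the fetal and adult FPKM of the captured gene, per batch, with exact 95% intervals and the number of promoters in each class. The share of the first batch rises from 39.8% below 1 FPKM to 78.3% between 20 and 100 FPKM.

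Genes higher in fetal cells did not have a larger fetal share of these contacts in either batch beyond the intervals. Among genes of the first batch marked as differential and higher in fetal cells, 301 of 620 contacts called in 1 population were fetal (48.5%, 44.5 to 52.6), and among those higher in adult cells 217 of 458 (47.4%, 42.7 to 52.1). The second batch gave 645 of 1317 (49.0%, 46.2 to 51.7) for genes higher in fetal cells and 538 of 1011 (53.2%, 50.1 to 56.3) for genes higher in adult cells. The intervals overlapped in both batches, and in the second the fetal share was the larger at genes with higher adult expression. Over all other contacts these shares were 52.0% (50.7 to 53.3) and 52.7% (51.4 to 53.9) for the first batch. They were 55.2% (54.3 to 56.2) and 52.8% (51.9 to 53.7) for the second, where the order was thus the opposite of that at the uncaptured active promoter bins.

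Tonsl, which acts in the repair of replication forks, was among the promoters with the most such contacts in the first batch (chr15:76470242-76470529, mm9). Of its 64 contacts 24 reached such bins, 10 of them fetal only and 2 adult only. Nubp2, of iron-sulphur cluster assembly, had 23 of 87. Eef1d and Eef1g encode subunits of translation elongation factor 1 and had 21 each. Eef1g (chr19:9041463-9041822) leaned to the fetal side, with 11 fetal only, 3 adult only and 7 in both and all on 1 side of it, between 46.6 and 245 kb.

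Prmt1, a protein arginine methyltransferase, led the second batch with 21 of 63 contacts (chr7:52241528-52241996), 15 of them in both populations, 1 fetal only and 5 adult only, over 1191 fetal and 1138 adult counts. 2410018M08Rik, Psph (phosphoserine phosphatase, of serine synthesis) and Gusb (beta-glucuronidase, a lysosomal enzyme) lie close together on chromosome 5 and had 19, 19 and 16. Pola2, a subunit of the DNA polymerase alpha-primase complex, had 16 of 57, with 13 in both. Nup188, a scaffold protein of the nuclear pore, had 18 of 51, with 8 fetal only, 10 in both and 0 adult only. Its counts came to 593 fetal and 420 adult, and the fetal count was the higher at 16 of the 18 bins. Nup188 was at 20.3 FPKM in fetal and 12.4 in adult cells.

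**Figure D4:**
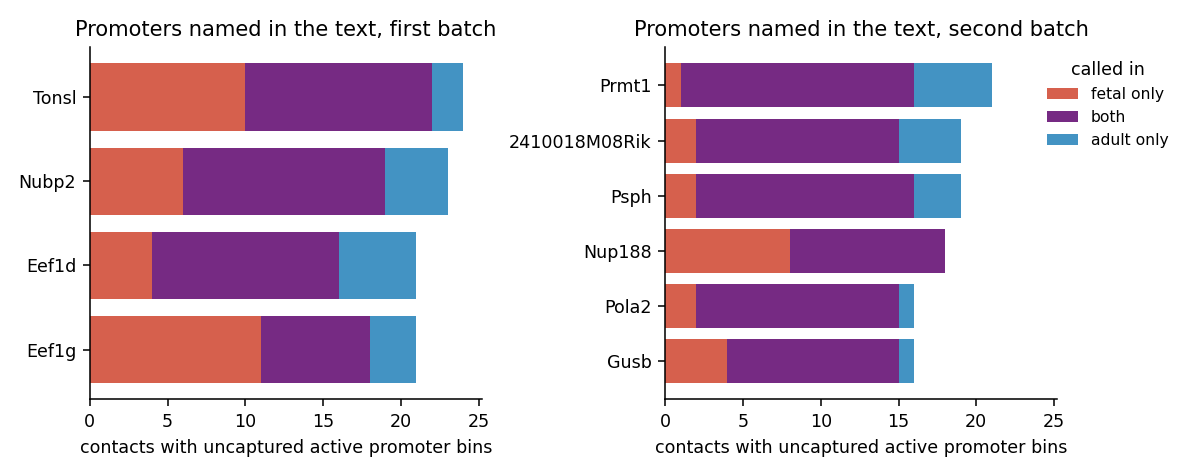
Each bar is a captured promoter named in the text as among those with the most contacts to uncaptured active promoter bins in its batch, divided into contacts called in fetal cells only, in both populations and in adult cells only. Tonsl had 24 in the first batch and Prmt1 21 in the second, and Nup188 shows 8 fetal-only and no adult-only contact.

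Many of the bins were shared by several captured promoters. Of 3675 bins of the first batch 1063 (28.9%) were reached from 2 or more promoter entries, up to 7, and of the second 841 of 3451 (24.4%), up to 5. With alternative promoters of a gene counted once, 883 (24.0%) and 827 (24.0%) were reached from 2 or more genes. The share of other bins reached in this way was not computed, so sharing is not shown to be particular to these bins. A bin reached from 7 promoters in the first batch (chr6:51960001-51962001, mm9) was touched by 6 promoters of Hoxa genes, which encode homeobox factors that set segment identity and are active in blood stem cells, and by Cbx3, which encodes a heterochromatin protein. Hoxa3_1 lay 202 kb away and had 16 fetal and 32 adult counts, and Hoxa7 208 kb away had 10 and 22. Hoxa10 had 6 and 13, Hoxa7_2 8 and 14, Hoxa9_2 8 and 11, and Cbx3, at 541 kb, 2 and 8. Hoxa7_1 went the other way, with 17 fetal and 9 adult counts, although it is an alternative promoter of Hoxa7. Adult counts were thus the higher at 6 of the 7 promoters, and 5 of the contacts were called in adult cells only, 1 in fetal cells only and 1 in both. In expression Hoxa10, which the authors marked as differential, was at 3.02 FPKM in fetal and 4.65 in adult cells, and Hoxa9_2, which they did not, at 19.9 and 26.0. This bin lies 0.16 kb from the captured fragment of Skap2, a gene for a signalling adaptor, and no other listed protein-coding start lies between Skap2 and the captured Snx10 on its other side. It is thus not shown to hold the promoter of an uncaptured gene.

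A bin in the major histocompatibility complex (chr17:35378001-35380001) was also reached from 7 promoters. H2-Q4, H2-Q6 and H2-Q7, class I antigen-presentation genes of the Qa group, were at 3.71, 0.0781 and 0.0969 FPKM in fetal cells and 68.1, 59.8 and 46.0 in adult cells. Their contacts were all called in adult cells only, with 6 fetal and 8 adult counts at H2-Q4, 5 and 10 at H2-Q6 and 2 and 6 at H2-Q7. Lsm2, an RNA-processing gene with 27.3 FPKM in fetal and 11.8 in adult cells, was called in fetal cells only, with 11 and 8 counts. Aif1 and Aif1_2 were called in both, with 33 and 24, and 46 and 42 counts, and Stk19 in adult cells only with 2 and 7. These counts are low, and H2-Q genes are close copies of each other, so reads and expression values may be divided among them wrongly. Gene order leaves Nfkbil1 and Ddx39b as candidates for the bin, which lay within 5 kb of a captured fragment.

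Another bin of the complex (chr17:35138001-35140001) was among the 6 most shared bins of both batches, through different promoters. In the first batch it was reached from Aif1, Aif1_2, Msh5, Rdbp, Stk19 and Tnf with 4 to 39 fetal and 7 to 31 adult counts. The second batch reached it from the heat-shock genes Hspa1a (162 fetal and 118 adult counts) and Hspa1b (121 and 83), from Ddah2 (52 and 61) and 1110038B12Rik (95 and 63), all called in both populations, and from Atp6v1g2 (51 and 28), called in fetal cells only.

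Of the candidates printed above, Ppp1r12c and Supt5 belong to bins of this kind. The bin for which gene order left Ppp1r12c, a regulatory subunit of myosin phosphatase, as sole candidate (chr7:4452001-4454001) was reached from Eps8l1, Prpf31, Rpl28, Rpl28_1, Tsen34_1 and Tsen34_2, over 40.5 to 871 kb. Adult counts were the higher at 5 of the 6, and Tsen34_2 had 18 fetal and 8 adult counts. The bin with Supt5, a subunit of the elongation factor DSIF, as sole candidate (chr7:29122001-29124001) was reached in the second batch from Plekhg2 (76 fetal and 54 adult counts), Eid2b (55 and 53), Mrps12 (36 and 28), Psmc4 (19 and 23) and Pak4 (15 and 24, adult only).

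The remaining shared bins differed in direction. On chromosome 4 a bin of the first batch (chr4:133742001-133744001) with 9 candidate genes, among them Lin28a, was reached from Stmn1 with 15 fetal and 8 adult counts and from Stmn1_1, an alternative promoter of the same gene, with 3 and 10. Ifi47, Irgm1, Trim41 and 3 promoters of Zfp62 reached, also in the first batch, a bin with Sgcd and Rack1 as candidates (chr11:48612001-48614001), and the 3 Zfp62 contacts were fetal only, with 10 and 4, 15 and 6, and 8 and 6 counts. In the second batch 2 neighbouring bins between Pcx and Rbm14 (chr19:4754001-4756001 and chr19:4756001-4758001) were each reached from Ctsf, Dpp3, Mrpl11, Pcx and Rbm14. At the first of them all 5 contacts were called in both populations, from 98 fetal and 81 adult counts at Rbm14 down to 30 and 50 at Ctsf, whose counts were the higher in adult cells. Abca2 led a bin on chromosome 2 (chr2:25354001-25356001) with 149 fetal and 108 adult counts, beside 2010317E24Rik, Fut7, Npdc1 and BC029214. A bin with Glg1 and Rfwd3 as candidates (chr8:113668001-113670001) was reached from Aars (34 and 19), Cog4 (84 and 72), Ddx19a (47 and 36), Znrf1 (23 and 9, fetal only) and Pdpr, whose 11756 and 10522 counts are taken up below. The unscaled fetal count was the higher at each of these promoters, while the scaled ratios ran from -0.07 at Pdpr to 1.04 at Znrf1.

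**Figure D5:**
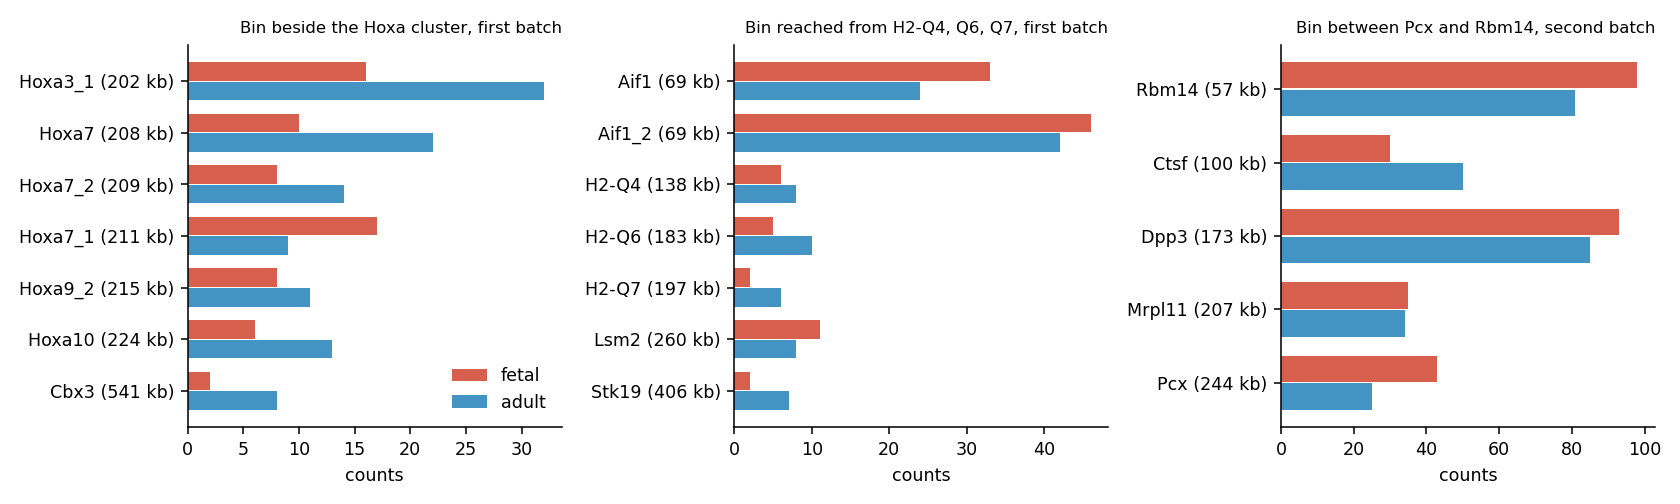
Bars give fetal and adult counts, unscaled, of each captured promoter that reached 1 of 3 shared bins, ordered by the distance in kb given beside its name. The bin titled as beside the Hoxa cluster lies 202 to 224 kb from the plotted Hoxa promoters. It is 0.16 kb from the captured fragment of Skap2. The adult bar there is the longer for 6 of 7 promoters, with Hoxa7_1 (17 fetal against 9 adult counts) as the exception. At the bin between Pcx and Rbm14 the fetal bar is the longer except at Ctsf (30 fetal against 50 adult counts). The bin reached from H2-Q4, H2-Q6 and H2-Q7 shows both directions.

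Captured promoters often reached past others. The nearest captured promoter to the bin was the one in contact in 1234 of 5192 contacts of the first batch (23.8%, 22.6 to 24.9) and in the second in 1634 of 4535 (36.0%, 34.6 to 37.4). At least 1 other captured promoter lay between in 59.7% and 44.2%. Captured fragments of both batches were counted, alternative promoters included, so some could not have reported the contact in its batch. The same shares over contacts with other bins were not computed. Contacts of the nearest promoter were called in both populations in 50.1% (47.3 to 52.9) and 52.9% (50.4 to 55.3), against 37.1% (35.6 to 38.6) and 46.3% (44.5 to 48.1) of the rest, which were also longer (medians of 94.3 against 189 kb and 74.8 against 124 kb).

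The largest differences between the populations at 50 or more counts lay on the fetal side in the first batch. AA987161 touched a bin 114 kb away with 54 fetal and 5 adult counts (scaled log2 ratio 3.05) and another 74.5 kb away with 125 and 25 (2.13). A530054K11Rik touched the latter with 83 and 14 (2.34), and Zfp932 a bin on chromosome 5 with 53 and 9 (2.29). The bins of AA987161 and A530054K11Rik lie beside Zfp738, in a cluster of zinc finger genes that are close copies of each other, so these counts are uncertain. Expression was higher in adult cells for all 3 of these genes (0.321 against 1.60 FPKM for AA987161, 0.681 against 1.88 for A530054K11Rik and 1.60 against 5.23 for Zfp932). On the adult side the ratios were smaller. Ing4, a chromatin reader of the ING family, had 16 fetal and 40 adult counts (-1.41), and Ldha_1, of lactate dehydrogenase A, 16 and 40 (-1.41), the latter 48.3 kb away at the bin for which Gtf2h1, a subunit of TFIIH, is the sole candidate. Rfx5_1 had 27 and 57 counts (-1.20) and Thrap3_2 24 and 49 (-1.14). Expression was higher in adult cells, as the contact was, for Ing4 (13.4 FPKM in fetal and 16.4 in adult cells) and Rfx5_1 (4.20 and 9.19). It was higher in fetal cells for Ldha_1 (327 and 180) and Thrap3_2 (51.3 and 44.2).

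On the fetal side Zfp12 led the second batch, with 66 fetal and 17 adult counts (1.67) at the bin with Rnf216, a ubiquitin ligase, as sole candidate, 123 kb away. Zbtb38 had 51 and 13 (1.67), and Arhgdig and Sdhd 45 and 12 each (1.60). Sdhd, an anchor subunit of succinate dehydrogenase, was at 42.7 FPKM in fetal and 21.0 in adult cells and Arhgdig at 2.36 and 0.0401, whereas Zfp12 (1.43 and 2.77) and Zbtb38 (1.96 and 5.06) were higher in adult cells. On the adult side stood Insl6 with 12 and 38 counts (-1.81), AI987944 with 23 and 65 (-1.69), the cyclin A2 gene Ccna2 with 14 and 39 (-1.64) and Tmem184c with 20 and 53 (-1.59). Of these, Insl6 (0.552 FPKM in fetal and 1.76 in adult cells), AI987944 (0.785 and 2.29) and Tmem184c (0.955 and 1.89) also had the higher expression in adult cells. Ccna2 did not (19.5 and 9.60), and its neighbouring bin, 42.3 kb away, was called in both with 48 and 53 counts. The bin of AI987944 is also the one where Zfp141 had 30726 fetal and 28422 adult counts, which are called uncertain below. The AI987944 counts there are therefore uncertain as well.

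The contacts with the highest scores in both populations also had high counts. Zmym5, in the first batch, had 451 fetal and 274 adult counts 76.7 kb away, Golgb1 57 and 60, Zbtb8os 92 and 72, and Adsl, an enzyme of purine synthesis, 55 and 52 at 238 kb. Gene order left 6 candidates for the bin of Zmym5, among them Zmym2, a gene of the same family. Whether reads of these genes were told apart was not tested, so the Zmym5 counts are uncertain. Of the second batch, 11 contacts held 1000 or more counts in a population, where the median was 30. Among them were those of Syt11_1 (50144 fetal and 43723 adult counts), Zfp141 (30726 and 28422), AI987944 (18142 and 16077), Bex2 (12593 and 10054), Pdpr, Csf2rb (8534 and 8483 at 1 bin, 1612 and 1671 at its neighbour), Zfp942 and Cml1. Zinc finger, Bex and Cml genes and Csf2rb have near-identical copies nearby, whose reads may not be told apart, so these values are uncertain. The counts of Syt11_1 and Pdpr are uncertain too, and their origin was not tested. Syt11, another promoter of the gene of Syt11_1, had 364 fetal and 313 adult counts at the same bin. In the first batch no contact with an uncaptured active promoter bin held 1000 or more counts. Below this level Hspe1, a mitochondrial chaperonin with 115 FPKM in fetal and 49.2 in adult cells, had 203 and 148 counts 62.0 kb away.

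The longest contacts called in both populations spanned 2041 kb from Zfp788_1 (7 fetal and 8 adult counts), 1500 kb from Stt3a, of the enzyme that attaches sugars to proteins (6 and 13), and 1381 kb from 4933411K20Rik (12 and 8). Those of the second batch spanned 1025 kb from Tmem87b (21 and 22), and 1006 and 908 kb from Zfp141 (23 and 27, and 92 and 110). The Zfp788_1, Stt3a and 4933411K20Rik contacts rested on at most 13 counts in a population. The 2 Zfp141 contacts are uncertain for another reason. The bin at 908 kb adjoins the one where Zfp141 had 30726 fetal and 28422 adult counts. The bin at 1006 kb is the one where AI987944 had 18142 and 16077. Those counts were called uncertain above, as zinc finger genes have near-identical copies nearby.

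Factors that regulate blood formation were read as a list. In the first batch 22 of their 45 promoters had such a contact (48.9%, 33.7 to 64.2, against 68.6% of all captured promoters), with 52 contacts, 20 of them in both populations, 16 fetal only and 16 adult only. The share in both (38.5%, 25.3 to 53.0) was near the 40.2% of all such contacts of the batch. Of all those called in 1 population, 49.1% were fetal. Gata2, a factor that maintains stem cells, was at 21.9 FPKM in fetal and 57.3 in adult cells and had 4 among 46 contacts, between 248 and 320 kb away, 3 of them in both and 1 adult only. Hlf, a stem cell factor, had 4, with 14 fetal and 11 adult counts at the 1 called in both and 3 fetal only, although it was at 23.5 FPKM in fetal and 35.0 in adult cells. Egr1, an early response factor at 0.702 FPKM in fetal and 25.3 in adult cells, had 4, of which 3 were adult only (5 and 10, 10 and 12, and 5 and 11 counts) and 1 fetal only (9 and 4). Stat5b, a cytokine signalling factor, had 5 and its promoter Stat5b_1 4, of which 1 and 2 were called in both. In the second batch the 2 listed promoters were Cebpb, with 1 adult-only contact, and Klf1, the main factor of red cell development, with 9 of 51, 4 in both, 2 fetal only and 3 adult only. The fetal counts at Klf1 came to 311 and the adult counts to 277, while its expression was 24.0 and 2.40 FPKM. These counts are unscaled, and the median log2 ratio over all within-chromosome contacts of this batch was 0.23 towards fetal. No fetal excess of contacts at Klf1 can be read from them.

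Promoters of cell cycle genes had such a contact in 11 of 12 cases in the first batch (91.7%, 61.5 to 99.8, an interval that takes in the 68.6% of all captured promoters). These were 25 of their 419 contacts (5.97%, against 10.5% over all contacts), 8 in both, 8 fetal only and 9 adult only. The share in both was 32.0% (14.9 to 53.5), an interval that takes in the 40.2% of all such contacts. Mcm7_1, of the replicative helicase, had 8 of them, with 4 adult only, 2 fetal only and 2 in both, and the D-type cyclin gene Ccnd3 had 4. Ccnd1, Ccnd2, Cdkn1a, Cdkn1b, Cdkn1c and Rb1 had 1 each, Cdkn1a_1 and Cdkn2c_1 2 and Cdkn2c 3. The second batch had 4 of 6 promoters (66.7%, 22.3 to 95.7, against 65.5%). Of their 16 contacts 10 were in both (62.5%, 35.4 to 84.8, an interval that takes in the 48.7% of all such contacts). Ccne1 (cyclin E1) had 5 contacts, Cdk4 4 with 162 fetal and 158 adult counts, Mcm2 4 with 239 and 185, and Ccna2 3 with 83 and 127.

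Genes whose names start with Rpl, Rps, Eif, Mrpl or Mrps were read as a list of ribosome and translation genes. Drawn by name, it also holds others, such as the kinase gene Eif2ak1. Its promoters touched uncaptured active promoter bins in 71 of 82 cases in the first batch (86.6%, 77.3 to 93.1, against 68.6%). The second batch had 25 of 31 (80.6%, 62.5 to 92.5, an interval that takes in the 65.5% of all captured promoters). Among all captured promoters of the first batch, the share was 78.3% from 20 to below 100 FPKM and 78.1% at 100 or more. The list was not compared at like expression. The listed promoters had 313 contacts with such bins in the first batch, 131 in both (41.9%), 75 fetal only and 107 adult only. In the second they had 137, 67 in both (48.9%), 37 fetal only and 33 adult only. Over all such contacts the share in both was 40.2% and 48.7%. Eif5a, a translation factor at 732 FPKM in fetal and 438 in adult cells, had 14 of its 31 contacts with such bins, with 314 fetal and 368 adult counts. Rpl7a and Eif6 had 13 each and Rps18 11, and for Rpl10 they made up 11 of 15 contacts. For the second batch, Eif2b4, Mrps12 and Mrpl12 had 12 each, Mrpl2 10 and Eif2ak1 9, with 8 of the last called in both.

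The batches shared 19 captured fragments, 15 of which had such contacts, 55 in the first batch and 49 in the second. The same promoter and bin was found in both batches for 32, that is 58.2% (44.1 to 71.3) of those of the first batch and 65.3% (50.4 to 78.3) of those of the second. Of the 32, 18 had the same class in both batches, among them 15 called in both populations in each batch, and 3 were fetal only in 1 batch and adult only in the other.

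Promoter sequences of RefSeq were matched for 2720 of the 3374 captured genes. Genes with a contact to an uncaptured active promoter bin held an ETS motif in 20.1% of promoters in the first batch and 16.9% in the second, against 11.8% of all RefSeq protein-coding genes in the table, and a GC box in 61.2% and 65.0% against 45.9%. The captured genes are a chosen set, so these differences from all genes cannot be tied to having such a contact. The comparison with captured genes without such a contact is void, since only 319 of 417 in the first batch (76.5%) and 487 of 609 in the second could be matched, both below the 80% such a check needs. The matched ones held a GC box in 53.5% and 61.5% and an ETS motif in 11.7% and 10.4%.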

How the data were processed

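Promoter Capture-C cuts cross-linked chromatin (here with DpnII), ligates ends that lie together and pulls out the products of chosen promoters with SureSelect probes, per the labels' protocols. It was applied here to 4 fetal and 4 adult HSC libraries in 2 batches. The submitters' processing notes name mm9, Trim Galore 0.41 and Bowtie2 2.2.2. Read filters and the treatment of duplicates are not given in the sources used here, and nothing says that the libraries came from separate animals. The authors deposited 1 table of significant contacts, called with LiMACC per the labels. The count deposited by the authors is a whole number for each contact in each population, pooled over the libraries of a batch in a way that is not stated. The score, deposited by the authors too, has the range of a −log10 p-value and is 0 where a contact was not called (smallest 1.3 and 2.0, p of 0.05 and 0.01). The authors also deposited FPKM of the captured gene, marks of distal bins and a mark of differential expression from other assays, whose making is not described. Of the per-sample columns, 0 were left unassigned.

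A contact counted as called where its score was above 0. Distance ran from middle to middle, and overlap of bin and captured fragment included both ends. A promoter is a name of the table within a batch, where a numbered suffix marks an alternative promoter. The planned fit for values per library could not be made on pooled values, so the batches were analysed apart with no test. Named promoters and bins were, per batch, the 6 promoters with the most such contacts, the 6 bins reached from the most promoters, the 4 contacts with the highest lower score, the 4 largest scaled ratios in each direction at 50 or more counts, the 3 longest called in both populations, and 3 gene lists (in full up to 12 promoters with such a contact, otherwise the 5 with the most). A few genes that these rules or the marker lists name are not reported here. Contacts of 1000 or more counts and the highest finite scores were added after their values were seen. The bins and the gene lists were chosen with earlier results of these data known. Of the 3374 captured genes, 3347 matched RefSeq names of GRCm38.p6, 301 through a synonym, and a bin was placed only where the spacing of its flanking genes differed by at most 10% between the builds. The RefSeq table of promoters is not complete, so candidates may be missing. Python 3.11.15 with pandas 2.3.3 and SciPy 1.17.1 was used, and the interval and overlap code was tested on simulated data. Alternatives comprised a stricter score, distance limits, wider margins around captured fragments, merging of neighbouring bins, 1 contact per bin, other scalings and thresholds, and leaving out the busiest promoter.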

Additional observations from a re-analysis of the deposited data

Results flagged for a closer look

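The report covers contacts within a chromosome. A further 23 of the 1070 listed contacts between chromosomes ended in bins with the same marks and without a captured fragment, 10 in the first batch and 13 in the second. They are singled out because they lie in data that no comparison of the report used and were called by the authors' method. They came from 20 promoters and reached 20 bins. Of the 23, 14 were called in both populations, 7 in fetal cells only and 2 in adult cells only, over 1272 fetal and 1133 adult counts. The same shares over all 1070 contacts between chromosomes were not computed, so this division is not shown to be particular to such bins. Polr2l, a small subunit of the RNA polymerases, had the most, with 393 fetal and 379 adult counts. The table has no control sample in which the background of such contacts could be read.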

How the results depend on the processing

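Of 106 recomputed values, 81 stayed within the interval of the reported value (counts within 1.5 times), 24 moved beyond it and 1 changed direction. Under a stricter score (2.3 and 3.0, a p 10 times smaller) the share called in both was 38.3% in the first batch, the fetal share of contacts of 1 population 44.0% and 48.5%, that share at differential genes higher in adult cells 42.2% and 50.1%, and the share of calls on these bins 14.3% and 14.7% in fetal and 15.4% and 15.5% in adult cells. With neighbouring bins merged, the share called in both was 45.0% and 54.9%, the fetal share in the second batch 53.5% and that at genes higher in fetal cells 52.1%. With 1 contact per bin the share called in both was 44.7% and 51.7%. Without bins within 5 kb of a captured fragment the shares of calls fell to 10.0% and 10.9% in fetal and 10.8% and 11.5% in adult cells. At 5 FPKM or more, 69.3% and 39.8% of promoters were expressed in fetal and 74.7% and 41.3% in adult cells. Scaled by total counts, the median count ratio was -0.16 in the first batch and 0.029 in the second, the change of direction. The cause of these shifts was not tested. The share called in both was 40.9% and 48.9% without bins within 20 kb of a captured fragment, a limit chosen after seeing the data. No paired analysis was possible because the values are pooled per population and batch, and for the same reason no library could be left out. In the first batch the median contact rested on 10 or 11 counts, and counting error at single contacts was not tested.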
